A study of Homo sapiens with 6 samples.

Results

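The genes of the aminoacyl-tRNA synthetases, 36 of the 23284 gene symbols in the deposited tables, were taken by symbol from the RNA-Seq values of control and lyophilized human cells. Symbols ending in 2 were counted as mitochondrial, which gave 16 genes, and the other 20 were counted as cytosolic or shared between both compartments. All 36 were found and all had a mean above 1 FPKM (fragments per kilobase of transcript, scaled to the number of mapped reads) in at least 1 group, the filter that left 11134 genes for testing. The cells were of GM12873, an established B-lymphoblastoid line, and every sample was made from the same number of cells. The 3 control samples went straight into the RNA extraction reagent, while the 3 lyophilized samples were freeze-dried in 0.1 M trehalose and kept for 2 weeks at room temperature before extraction. Each lyophilized sample was paired with the control of the same number, so that 3 pairs were available. Freeze-drying, trehalose and storage changed together and cannot be told apart, and all samples came from 1 cell line.

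Aminoacyl-tRNA synthetases join each amino acid to the transfer RNAs that carry its anticodons, which is the step at which the genetic code is read into protein. Animal cells translate in 2 compartments, the cytosol and the mitochondrion, and for most amino acids a separate nuclear gene encodes the enzyme for each. Several cytosolic synthetases are held with 3 scaffold proteins in a multisynthetase complex, the others are free or form smaller assemblies, and GARS and KARS each supply both compartments from a single gene. The mitochondrial enzymes charge the transfer RNAs that serve the few proteins encoded by mitochondrial DNA, which are subunits of the oxidative phosphorylation machinery.

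The deposited tables hold no read counts, and the read totals listed by the study were not used here. From the smallest FPKM steps of short, barely detected loci, control 2 and control 3 had 1.38 and 1.66 times the reads of control 1, and lyophilized samples 1 to 3 had 1.90, 1.84 and 1.53 times as many. Of the 6 B lineage markers reported here (MS4A1, CD79A, CD79B, PAX5, CD74, CD22), 6 were expressed, with summed levels of 2922 to 3909 FPKM in the controls and 2656 to 3605 FPKM in the lyophilized samples. The defining T cell (CD3D, CD3E, CD3G, CD2, CD8A), erythroid (HBB, HBA1, HBA2, ALAS2) and fibroblast markers (COL1A1, COL1A2, COL3A1, DCN) stayed below 1 FPKM in every sample, as did 4 of 5 myeloid and 3 of 4 epithelial markers. S100A9, the remaining myeloid marker, lay at 3.71, 2.41 and 3.54 FPKM in controls 1 to 3 and at 5.15, 2.13 and 2.30 FPKM in lyophilized samples 1 to 3. KRT18, the remaining epithelial marker, lay at 0.762, 1.31 and 1.45 FPKM in the controls and at 0.888, 1.29 and 1.315 FPKM in the lyophilized samples.

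The sequences at the start sites of some of these genes are shown first, because they mark features that members share and that no expression value was used to find. RefSeq promoter sequences of GRCh38.p14, running from 250 bases before the start site to 50 bases after it, were matched for 30 of the 36 genes. The 6 without an entry were DARS, LARS, VARS, YARS, AARS2 and VARS2. The letters TTGCATCA, the composite site bound by ATF4 with C/EBP proteins and known as an amino acid response element, were searched on both strands. They were found in 6 of the 30 promoters (20%), against 295 of 27305 gene symbols in the whole table (1.08%). All 6 are cytosolic synthetases, and each is shown as 60 bases on the strand of the gene, 5′ to 3′, with the motif in capitals.
AARS (chr16:70289660-70289719, minus strand): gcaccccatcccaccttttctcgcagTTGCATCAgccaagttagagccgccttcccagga
CARS (chr11:3057392-3057451, minus strand): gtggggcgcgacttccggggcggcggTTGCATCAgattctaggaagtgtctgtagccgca
IARS (chr9:92293677-92293736, minus strand): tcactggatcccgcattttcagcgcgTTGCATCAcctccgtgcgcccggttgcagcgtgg
MARS (chr12:57488038-57488097, plus strand): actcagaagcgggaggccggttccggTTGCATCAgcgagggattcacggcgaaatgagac
NARS (chr18:57621789-57621848, minus strand): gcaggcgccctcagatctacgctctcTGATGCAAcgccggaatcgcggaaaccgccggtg
TARS (chr5:33440941-33441000, plus strand): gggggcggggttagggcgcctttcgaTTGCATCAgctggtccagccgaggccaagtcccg
In NARS the motif stood on the opposite strand, so that its capitals read TGATGCAA, and in the other 5 genes it read TTGCATCA on the strand of the gene. A match describes letters in this window and does not show that a factor bound there.

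HARS and HARS2, the cytosolic and mitochondrial histidyl-tRNA synthetases, are neighbours that point away from each other, and their start sites in GRCh38.p14 are separated by 84 bases. The whole interval, with 50 bases beyond each start site, is given on the plus strand with the 84 shared bases in capitals.
HARS and HARS2 (chr5:140691321-140691504, plus strand): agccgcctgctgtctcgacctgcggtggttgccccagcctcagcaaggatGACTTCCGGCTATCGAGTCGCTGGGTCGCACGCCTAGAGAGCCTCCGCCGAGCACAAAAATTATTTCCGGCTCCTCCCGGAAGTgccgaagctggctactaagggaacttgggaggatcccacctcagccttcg
In this sequence HARS is read leftwards from the left edge of the capitals and HARS2 rightwards from their right edge. On GRCh37, the build of the expression tables, HARS spans chr5:140053490-140070971 and HARS2 spans chr5:140071018-140078890.

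The first comparison was between the levels of the cytosolic and the mitochondrial genes within each sample, which FPKM allows because it is scaled to transcript length. The cytosolic genes lay about 4-fold above the mitochondrial ones in every sample. The median level of the 20 cytosolic or shared genes was 48.3, 65.2 and 58.8 FPKM in controls 1 to 3 and 53.5, 65.5 and 61.9 FPKM in lyophilized samples 1 to 3. The median of the 16 mitochondrial genes was 12.2, 15.1 and 13.3 FPKM in the controls and 12.4, 15.3 and 14.5 FPKM in the lyophilized samples. The ratio of the medians therefore ran from 3.95 in control 1 to 4.43 in control 3, with 4.30, 4.28 and 4.26 in lyophilized samples 1 to 3. On the log2 scale the medians differed by 1.98 to 2.14 in the controls and by 2.08 to 2.10 in the lyophilized samples, so that the lyophilized values lay inside the range of the controls. By control mean, 20 of 20 cytosolic and 12 of 16 mitochondrial genes exceeded the median of all genes tested, 10.3 FPKM.

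Within the cytosolic set the control means spanned from LARS to WARS. WARS, the tryptophanyl-tRNA synthetase that interferon gamma is known to induce, was the highest, at 149.7, 186 and 148 FPKM in controls 1 to 3 and 159, 188 and 148 FPKM in lyophilized samples 1 to 3. KARS, the lysyl-tRNA synthetase shared by both compartments, followed at 117, 145 and 127 FPKM in the controls and 129, 162 and 134 FPKM in the lyophilized samples. The lowest sample of WARS lay above the highest control of KARS, while the highest lyophilized sample of KARS fell inside the range of WARS. QARS, which charges glutamine, came next with a control mean of 111 ± 12.3 FPKM (SD, n = 3), and its range of 1 SD overlapped that of KARS. GARS, the glycyl-tRNA synthetase that also serves both compartments, was steadier, at 64.1, 71.7 and 69.4 FPKM in the controls and 67.6, 71.6 and 74.9 FPKM in the lyophilized samples.

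At the low end of the cytosolic set stood the genes for leucine and valine charging. LARS measured 19.4, 28.99 and 22.99 FPKM in the controls and 26.1, 29.5 and 28.5 FPKM in the lyophilized samples. VARS measured 20.3, 35.1 and 28.5 FPKM in the controls and 16.03, 26.5 and 20.2 FPKM in the lyophilized samples, and in each lyophilized sample it lay below LARS. The control ranges of both genes overlapped, and so did those of their next neighbours CARS (control mean 28.3 ± 2.11 FPKM, SD, n = 3) and NARS (30.2 ± 5.22 FPKM, SD, n = 3). The remaining cytosolic genes had control means between 42.1 FPKM (EPRS) and 78.5 FPKM (SARS), where neighbours in the order differed by less than the larger of their SDs, except that SARS stood above AARS (70.4 ± 3.74 FPKM, SD, n = 3).

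**Figure D1:**
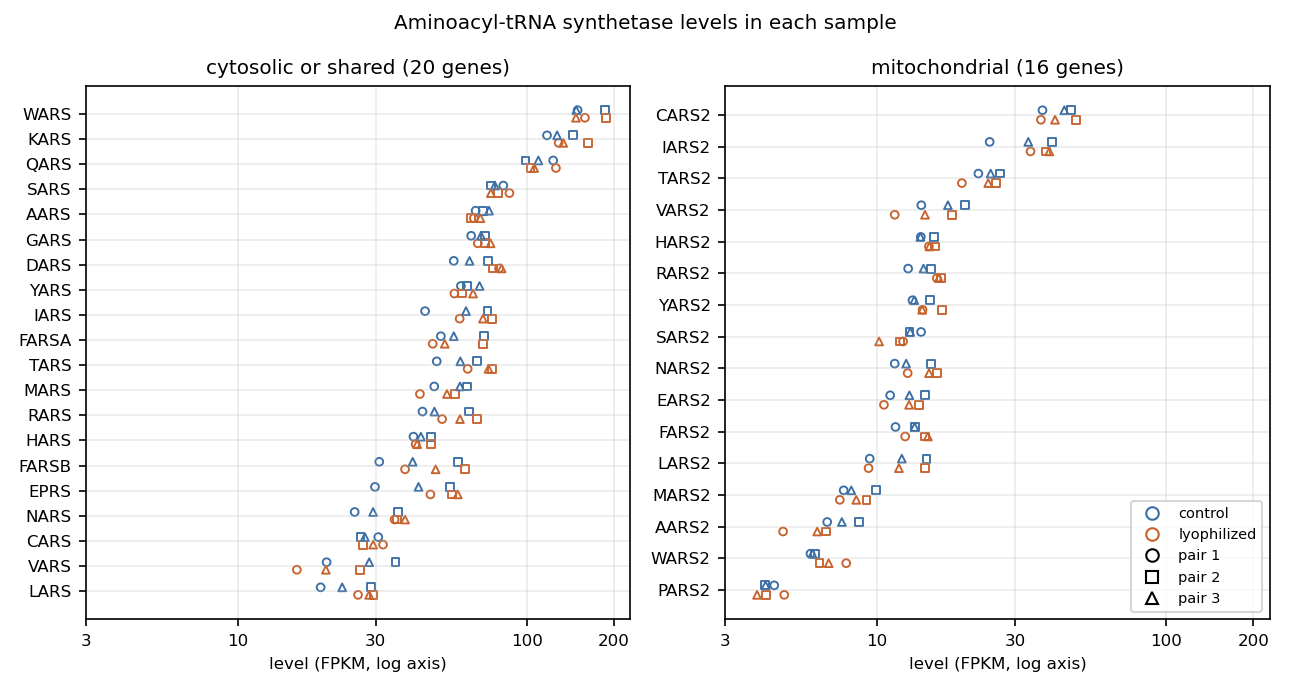
Level of each synthetase gene in FPKM (log axis) in the 3 control and 3 lyophilized samples, 1 symbol per sample, genes ordered within the cytosolic or shared set (20 genes) and the mitochondrial set (16 genes). The cytosolic genes run up to WARS, control mean 161 FPKM, and the mitochondrial ones from PARS2, control mean 4.22 FPKM, to CARS2, control mean 42.97 FPKM, and the control and lyophilized symbols overlap in range for all but 5 genes. Of all genes tested, 9.66% were higher and 12.6% lower in the lyophilized samples without overlap.

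By control mean, CARS2 and IARS2 were the highest of the mitochondrial genes and PARS2 and WARS2 the lowest, while in the lyophilized samples the mean of AARS2 (values given further on) was below that of WARS2. CARS2, for cysteine, measured 37.4, 47.03 and 44.5 FPKM in the controls and 36.9, 48.8 and 41.3 FPKM in the lyophilized samples. IARS2, for isoleucine, measured 24.6, 40.2 and 33.4 FPKM in the controls and 33.99, 38.5 and 39.5 FPKM in the lyophilized samples. The control ranges of CARS2 and IARS2 overlapped, and TARS2 followed at a control mean of 24.6 ± 2.08 FPKM (SD, n = 3). PARS2, for proline, measured 4.42, 4.11 and 4.13 FPKM in the controls and 4.79, 4.14 and 3.86 FPKM in the lyophilized samples. WARS2 measured 5.90, 6.10 and 5.99 FPKM in the controls and 7.85, 6.34 and 6.82 FPKM in the lyophilized samples. All 6 samples of PARS2 lay below all 6 of WARS2. Between IARS2 and the lowest genes, 8 mitochondrial genes had control means from 12.2 FPKM (LARS2) to 14.7 FPKM (HARS2), a stretch in which the order cannot be read against the SDs of 0.705 to 2.70 FPKM. By control mean, 15 cytosolic genes lay above the highest mitochondrial one and 3 mitochondrial genes lay above the lowest cytosolic one.

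Set side by side by amino acid, the cytosolic gene was the higher of its pair in all 6 samples in 15 of 16 gene pairs. The exception was cysteine, where CARS stood at 0.819, 0.566 and 0.619 times CARS2 across the controls and at 0.862, 0.556 and 0.712 times CARS2 across the lyophilized samples. The widest gap was in tryptophan, where WARS stood at 25.4, 30.6 and 24.7 times WARS2 across the controls and at 20.2, 29.6 and 21.7 times WARS2 across the lyophilized samples. The narrowest gap in favour of the cytosolic gene was in valine, with VARS at 1.43, 1.74 and 1.62 times VARS2 in the controls. HARS, which shares its start region with HARS2, measured 40.5, 46.8 and 43.01 FPKM in the controls, and HARS2 measured 14.2, 15.8 and 14.2 FPKM. The lyophilized samples gave 41.3, 46.6 and 41.7 FPKM for HARS and 15.1, 15.9 and 15.2 FPKM for HARS2, so the ratio of the pair stayed between 2.73 and 3.04 in the 6 samples. Of the exon bases of HARS 37.6% overlap WDR55 on the opposite strand, and as the libraries kept no strand, reads of both genes there cannot be told apart. The median ratio over the 16 gene pairs was 3.40 in the controls.

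**Figure D2:**
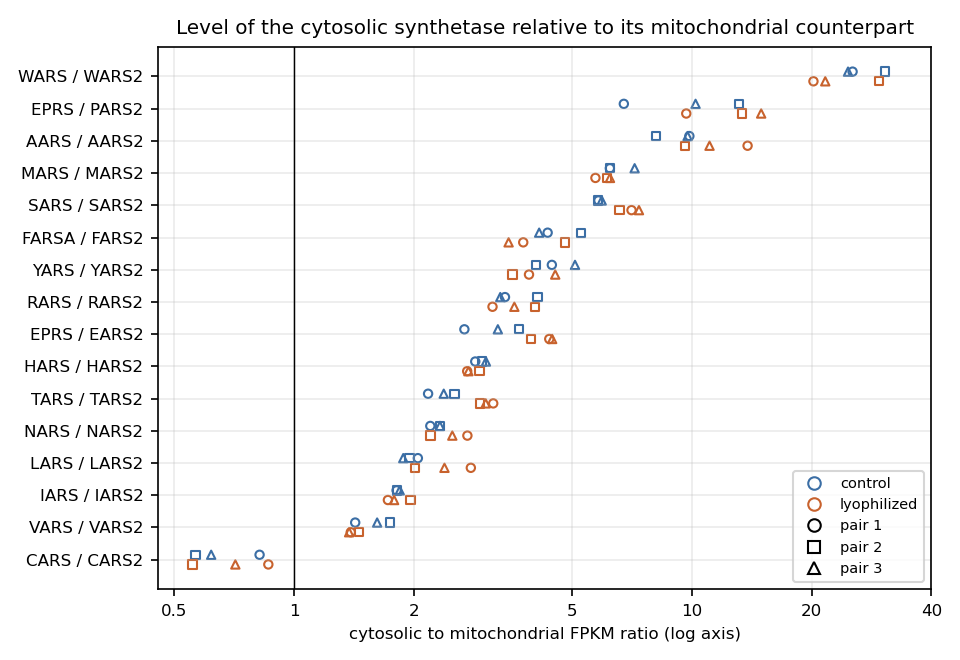
Ratio of the FPKM of each cytosolic synthetase to that of its mitochondrial counterpart (log axis) in the 6 samples, with a line at a ratio of 1. The points of 15 gene pairs lie to the right of the line, the 6 points of CARS / CARS2 lie to its left, and WARS / WARS2, control mean ratio 26.9, lies farthest to the right.

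The central question of the study was whether RNA of lyophilized cells keeps the profile of control cells, and the synthetases were compared for it with limma on log2(FPKM + 0.1), a scale that understates the change of low genes. None of the 36 genes passed an adjusted p of 0.05 when the groups were compared without the pairing, in either set or direction. Over all genes tested, 62 of 11134 were lower (0.557%) and 2 were higher (0.018%) in the lyophilized samples. At an unadjusted p below 0.05, 1 of the 36 genes (DARS) passed, against 14.1% of all genes tested. The median log2 fold change, lyophilized over control, was 0.06 for the cytosolic and -0.01 for the mitochondrial genes, beside 0.04 for all genes tested. The range of the 3 controls was larger than the fold change in 20 of 20 cytosolic and 13 of 16 mitochondrial genes, as in 78.5% of all genes tested. These p-values measure the spread between the samples of 1 line, and in bulk RNA fewer cells of a kind and less RNA per cell cannot be told apart.

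With the pair as a block, which removes what a control and its lyophilized partner share, 11 of the 36 genes were called. Of all genes tested, 15.9% were called higher and 14.9% lower. Of the 20 cytosolic genes, 8 were higher in the lyophilized samples (DARS, EPRS, FARSB, IARS, LARS, NARS, RARS and TARS), against 15.9% of all genes tested, and 1 was lower (VARS), against 14.9% of all. Of the 16 mitochondrial genes, none was higher and 2 were lower (AARS2 and VARS2), against the same 15.9% and 14.9% of all. The fold changes behind these calls were small, between -0.41 and 0.37 on the log2 scale. The number of calls depended on the pair left out, for the synthetases and over all genes tested. All 11 held without pair 2, 5 held without pair 1 and 4 without pair 3, and those that held in each of the 3 cases were DARS, EPRS, TARS and VARS. Over all genes, 2246 were called lower and 3113 higher without pair 2. These counts were 1195 and 999 without pair 1, and 786 and 478 without pair 3. By sign alone, 9 cytosolic and 6 mitochondrial genes were higher after lyophilization in each of the 3 pairs (33.4% of all genes tested), and 5 cytosolic and 6 mitochondrial genes were lower in each (28.8% of all).

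The cytosolic genes with the largest differences upwards were EPRS, DARS and TARS. EPRS, a single chain that charges both glutamate and proline and sits in the multisynthetase complex, measured 29.9, 54.1 and 42.2 FPKM in controls 1 to 3 and 46.4, 55.2 and 57.7 FPKM in lyophilized samples 1 to 3. Its lyophilized samples clustered at the upper end, but control 2 lay inside their range, and the log2 fold change was 0.37 ± 0.21 (SE, adjusted p = 0.46 by limma, 0.0199 with the block). DARS, the aspartyl-tRNA synthetase of the same complex, measured 55.9, 73.2 and 63.3 FPKM in the controls and 80.1, 76.6 and 81.7 FPKM in the lyophilized samples. It was the only cytosolic gene whose groups did not overlap upwards, a pattern seen in 9.66% of all genes tested, with a log2 fold change of 0.32 ± 0.13 (SE, adjusted p = 0.316 by limma, 0.0155 with the block). TARS, for threonine, measured 48.8, 67.4 and 58.9 FPKM in the controls and 62.4, 75.7 and 73.7 FPKM in the lyophilized samples. Each of its lyophilized samples exceeded its own control while the groups overlapped, and its log2 fold change was 0.28 ± 0.15 (SE, adjusted p = 0.423 by limma, 0.00666 with the block).

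In the opposite direction VARS, the valyl-tRNA synthetase that is bound to elongation factor 1, differed most. From the values given above, each lyophilized sample was below its control, with differences of -0.34, -0.40 and -0.50 in log2 for pairs 1 to 3. The control range of VARS was wider than that, so that its log2 fold change of -0.41 ± 0.24 (SE) had an adjusted p of 0.467 by limma and 0.00242 with the block. MARS, the methionyl-tRNA synthetase that charges initiator and elongator transfer RNA, measured 47.8, 62.00 and 58.7 FPKM in the controls and 42.7, 56.5 and 52.9 FPKM in the lyophilized samples. Its 3 pairs differed by -0.16, -0.13 and -0.15 in log2, close to each other, with an adjusted p of 0.673 by limma and 0.0518 with the block. AARS, for alanine, measured 66.5, 70.7 and 73.95 FPKM in the controls and 65.5, 63.97 and 69.03 FPKM in the lyophilized samples, a log2 fold change of -0.09 (adjusted p = 0.718 by limma, 0.212 with the block). No cytosolic gene had lyophilized samples that were all below all controls, a pattern seen in 12.6% of all genes tested. Of the exon bases of MARS 8.0% overlap DDIT3 on the opposite strand.

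By role, the 8 cytosolic synthetases of the multisynthetase complex were EPRS, IARS, LARS, MARS, QARS, RARS, KARS and DARS. Of these 5 were higher with the block, against 15.9% of all genes tested, and none was lower, against 14.9%, and their median log2 fold change was 0.21. Of the 12 cytosolic or shared synthetases outside the complex 3 were higher and 1 lower, with a median log2 fold change of 0.03, and the difference between both groups was not tested. In the complex, IARS had a log2 fold change of 0.21, RARS of 0.20, LARS of 0.25, KARS of 0.12 and QARS of 0.01. Outside it, NARS for asparagine had a log2 fold change of 0.27. The shared enzyme GARS had a log2 fold change of 0.06 (adjusted p = 0.813 by limma, 0.369 with the block), and the shared KARS had an adjusted p of 0.701 by limma and 0.0652 with the block. Transcript GC content, taken from the longest coding transcript, also differed between these groups, with a median of 43.2% in the complex and 52.2% outside it, and its part in the result was not tested.

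Phenylalanyl-tRNA synthetase of the cytosol is built of equal numbers of alpha and beta chains, encoded by FARSA and FARSB. The ratio of FARSA to FARSB was 1.63, 1.23 and 1.39 across controls 1 to 3, against 1.25, 1.16 and 1.08 across their lyophilized partners. It was lower in the lyophilized sample of each pair, while the groups overlapped. FARSB was higher with the block (log2 fold change 0.21, adjusted p = 0.0304 by limma), though not after correction for GC content (-0.02), and FARSA was not called (log2 fold change -0.07, adjusted p = 0.308 by limma with the block). The transcripts stand near the ends of the GC range of the set, at 40% for FARSB and 60.3% for FARSA.

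Among the mitochondrial genes AARS2, VARS2 and SARS2 were lowest relative to control. AARS2, for alanine, measured 6.74, 8.70 and 7.58 FPKM in the controls and 4.75, 6.66 and 6.23 FPKM in the lyophilized samples. All its lyophilized samples lay below all controls, and the log2 fold change was -0.39 ± 0.17 (SE, adjusted p = 0.355 by limma, 0.0134 with the block and 0.066 with the block but without pair 3). VARS2, for valine, measured 14.3, 20.2 and 17.6 FPKM in the controls and 11.5, 18.2 and 14.7 FPKM in the lyophilized samples, and its groups overlapped. Its log2 fold change was -0.24 ± 0.20 (SE, adjusted p = 0.599 by limma, 0.0317 with the block). SARS2, for serine, measured 14.2, 12.97 and 13.1 FPKM in the controls and 12.3, 12.1 and 10.2 FPKM in the lyophilized samples. The highest lyophilized value of SARS2 was below its lowest control, yet with a log2 fold change of -0.22 ± 0.12 (SE) its adjusted p was 0.435 by limma and 0.059 with the block. AARS2 and SARS2 were the 2 of 16 mitochondrial genes without overlap downwards, against 12.6% of all genes tested. The exon bases of VARS2 (100%) and SARS2 (77.5%) are shared with further gene models on the same strand, so that the division of their reads by the authors' counting is uncertain.

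Upwards, the mitochondrial genes with the largest differences in all 3 pairs were WARS2, RARS2 and NARS2, and none was called. WARS2, at the values given above, had controls between 5.90 and 6.10 FPKM and lyophilized samples from 6.34 to 7.85 FPKM that did not overlap them. RARS2, for arginine, measured 12.8, 15.4 and 14.5 FPKM in the controls and 16.1, 16.6 and 16.4 FPKM in the lyophilized samples, again without overlap. WARS2 and RARS2 were the 2 of 16 mitochondrial genes without overlap upwards, against 9.66% of all genes tested. Their log2 fold changes were 0.21 ± 0.12 for WARS2 and 0.20 ± 0.11 for RARS2 (SE, adjusted p = 0.462 and 0.44 by limma, 0.122 and 0.0613 with the block). NARS2, for asparagine, measured 11.5, 15.4 and 12.6 FPKM in the controls and 12.8, 16.2 and 15.2 FPKM in the lyophilized samples, with overlapping groups and an adjusted p of 0.643 by limma. IARS2 had a log2 fold change of 0.21, as large as WARS2, but was lower in the lyophilized sample of pair 2. The other mitochondrial genes lay between -0.09 (TARS2) and 0.13 (FARS2) on the log2 scale. FARS2 is uncertain throughout, as 59.6% of the 75-base stretches of its transcript occur elsewhere in the genome and the authors kept reads mapped to 1 position only.

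**Figure D3:**
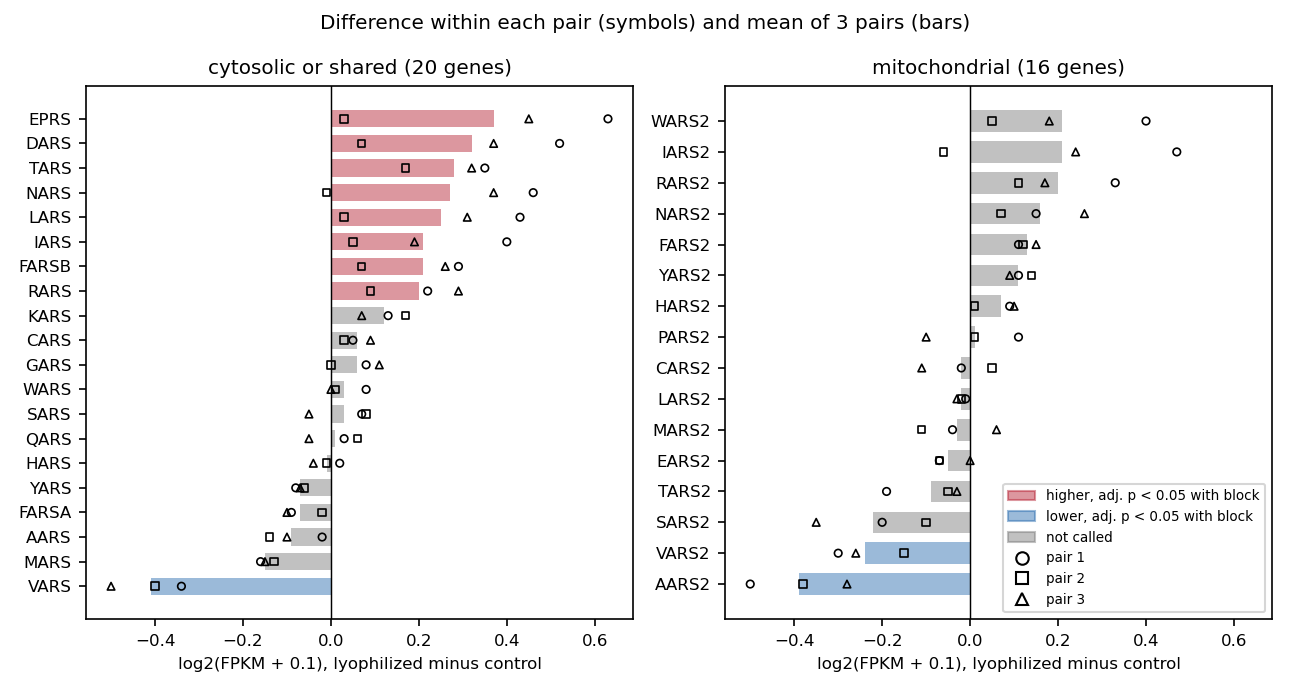
Difference of each synthetase gene between lyophilized and control on the log2(FPKM + 0.1) scale, with 1 symbol for each of the 3 pairs and a bar for their mean, red or blue where the gene was called higher or lower with the pair as a block and grey otherwise. The means run from -0.41 (VARS) to 0.37 (EPRS) in the cytosolic or shared set and from -0.39 (AARS2) to 0.21 (IARS2 and WARS2) in the mitochondrial set. The symbols of pair 2 lie nearer to 0 than those of pairs 1 and 3 for most genes with positive means.

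The differences went with the base composition of the transcripts. Across the 36 genes the log2 fold change correlated with transcript GC content at Pearson r = -0.88 and Spearman rho = -0.87, with r = -0.90 in the 20 cytosolic and r = -0.85 in the 16 mitochondrial genes. The same relation over 10866 tested genes with a transcript had r = -0.66 and rho = -0.75, so it was not confined to the synthetases. These correlations are descriptions across genes that share the same 6 libraries. By pair, rho over the 36 genes was -0.85, -0.53 and -0.93 for pairs 1 to 3. With transcript length the 36 fold changes had r = 0.04. Below 50% GC, 10 of 10 cytosolic and 6 of 9 mitochondrial genes had a positive fold change, against 83.7% of all genes tested there. At or above 50%, 4 of 10 cytosolic and 2 of 7 mitochondrial genes did, against 22.8% of all. All 8 genes called higher with the block were below 50% GC and all 3 called lower were above it, a split that the other genes tested also showed. Of all genes with a transcript called higher, 1640 were below 50% GC and 101 at or above it. Of those called lower, 83 were below 50% GC and 1534 at or above it.

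Coding sequence of genes from both ends of that order is given to show the difference in composition. Among the genes with an entry in the promoter table, those with the highest log2 fold changes were EPRS, TARS and NARS. The lowest were SARS2 and MARS, followed by AARS and TARS2, both at -0.09, of which TARS2 is shown. DARS, VARS, AARS2 and VARS2 had larger differences than some of the genes shown but no such entry. For each gene shown, the 60 bases at the centre of the longest coding exon are printed from GRCh37. They read 5′ to 3′ on the strand of the gene, with G and C in capitals.
EPRS (chr1:220170475-220170534, minus strand): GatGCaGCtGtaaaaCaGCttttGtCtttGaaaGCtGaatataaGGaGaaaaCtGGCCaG
TARS (chr5:33448712-33448771, plus strand): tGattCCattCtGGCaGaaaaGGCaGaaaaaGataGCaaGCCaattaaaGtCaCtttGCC
NARS (chr18:55274757-55274816, minus strand): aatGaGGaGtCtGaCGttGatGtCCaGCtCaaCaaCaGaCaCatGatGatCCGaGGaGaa
SARS2 (chr19:39421213-39421272, minus strand): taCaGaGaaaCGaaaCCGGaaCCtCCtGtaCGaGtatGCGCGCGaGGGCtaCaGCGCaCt
MARS (chr12:57892275-57892334, plus strand): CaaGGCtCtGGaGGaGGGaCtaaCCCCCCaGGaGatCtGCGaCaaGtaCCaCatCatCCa
TARS2 (chr1:150470085-150470144, plus strand): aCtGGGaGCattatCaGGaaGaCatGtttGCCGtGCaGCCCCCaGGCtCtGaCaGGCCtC
The stretches hold 40%, 40% and 46.7% GC in EPRS, TARS and NARS and 56.7%, 56.7% and 58.3% GC in SARS2, MARS and TARS2. The whole transcripts hold 42.3%, 42.8% and 41.7% GC in the first 3 genes and 61.4%, 53.8% and 54.6% in the last 3.

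**Figure D4:**
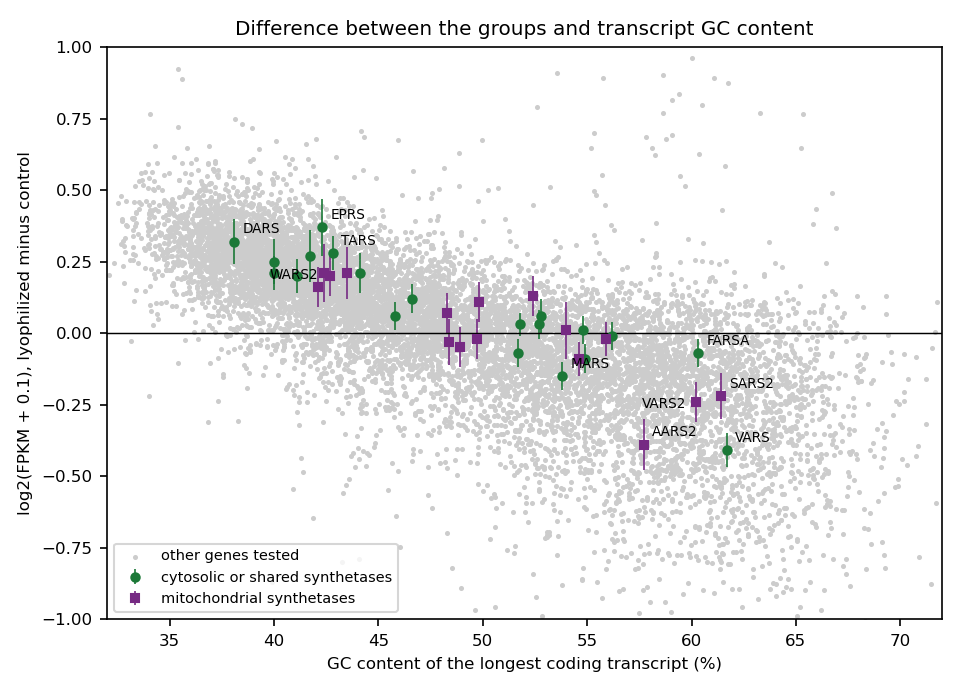
Log2(FPKM + 0.1) of lyophilized minus control (vertical axis) against the GC content of the longest coding transcript in percent (horizontal axis), with cytosolic and mitochondrial synthetases in colour, error bars of 1 SE from the fit with the block, and the other genes tested in grey, where genes beyond the axis limits are not drawn. The synthetases descend from the upper left, with DARS at 38.1% GC, to the lower right, with VARS at 61.7% GC (r = -0.88, n = 36).

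When a smooth curve over transcript GC content was subtracted in each sample, the calls with the block changed. The cytosolic genes called higher were then FARSA, QARS and TARS, 3 of 20 (9.25% of all genes were higher), and none of the 36 genes was called lower (6.7% of all genes were lower). Among the mitochondrial genes 1 of 16 was called higher, FARS2, whose reads are uncertain. TARS was the only gene called higher both before (adjusted p = 0.00666 by limma) and after the correction (log2 fold change 0.14, adjusted p = 0.0488 by limma with the block). VARS moved from a log2 fold change of -0.41 to -0.15 (adjusted p = 0.129 by limma with the block), DARS from 0.32 to 0.05, and EPRS from 0.37 to 0.21. After correction the 36 fold changes ran from -0.19 (AARS2) to 0.24 (FARS2), with medians of 0.09 for the cytosolic and 0.05 for the mitochondrial genes. The sign turned in 10 genes, among them FARSA (-0.07 to 0.17, adjusted p = 0.0363 by limma with the block) and SARS2 (-0.22 to 0.04). The complex and the cytosolic genes outside it then had medians of 0.06 and 0.11. When transcript length was corrected as well, VARS stood at 0.01 and FARS2 was the only gene called (adjusted p = 0.0227 by limma with the block).

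The balance between the compartments was compared through the ratio of each cytosolic gene to its counterpart. Of the 16 ratios, 6 were higher after lyophilization in each of the 3 pairs (AARS/AARS2, EPRS/EARS2, EPRS/PARS2, LARS/LARS2, SARS/SARS2 and TARS/TARS2) and 6 were lower in all 3 (FARSA/FARS2, HARS/HARS2, MARS/MARS2, VARS/VARS2, WARS/WARS2 and YARS/YARS2). The ratio TARS/TARS2 was 2.17, 2.53 and 2.38 across controls 1 to 3, against 3.17, 2.94 and 3.03 across their lyophilized partners, without overlap. The ratio SARS/SARS2 was 5.82, 5.80 and 5.94 across the controls, against 7.05, 6.58 and 7.36 after lyophilization, also without overlap. EPRS/EARS2 had the widest shift, 0.42 on the log2 scale, with 2.68, 3.68 and 3.25 across the controls, against 4.38, 3.94 and 4.46 after lyophilization. These 3 ratios reached the smallest exact two-sided permutation p that 3 samples against 3 allow, 0.1, and the lowest Benjamini-Hochberg adjusted p over the 16 ratios was 0.457. With the pairing, an exact permutation test that flips signs cannot go below 0.25, and its lowest adjusted p was 0.333. EPRS counts in 2 of the ratios because it charges 2 amino acids.

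The shifts of the ratios also went with GC content. In 9 gene pairs the cytosolic transcript had the lower GC content, and 6 of these ratios were higher and none lower in all 3 sample pairs. In the other 7 gene pairs it had the higher GC content, and 6 of these ratios were lower and none higher in all 3. Over the 16 gene pairs the shift and the difference in GC content had r = -0.89 and rho = -0.88, a description over genes measured in the same libraries.

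Levels of the synthetases went with the pair a sample belonged to. Control 1 was the lowest of the controls for 29 of the 36 genes and control 2 the highest for 29, against 55.5% and 44.5% of all genes tested. Among the lyophilized samples, sample 1 was the lowest for 26 of the 36 genes and sample 2 the highest for 22, against 50.9% and 35.1% of all. The order was thus largely the same in both groups and in both compartments. FARSB showed it clearly, with 30.9, 57.9 and 40.3 FPKM in the controls and 37.9, 60.9 and 48.4 FPKM in the lyophilized samples. The cytosolic QARS, CARS and SARS and the mitochondrial PARS2 and SARS2 ran the other way, with their highest controls in pair 1, and SARS measured 82.9, 75.2 and 77.5 FPKM in the controls and 86.99, 79.5 and 75.01 FPKM in the lyophilized samples. Relative read number was also lowest in control 1, while lyophilized sample 1 had the most reads, and the part of depth in the result was not tested.

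**Figure D5:**
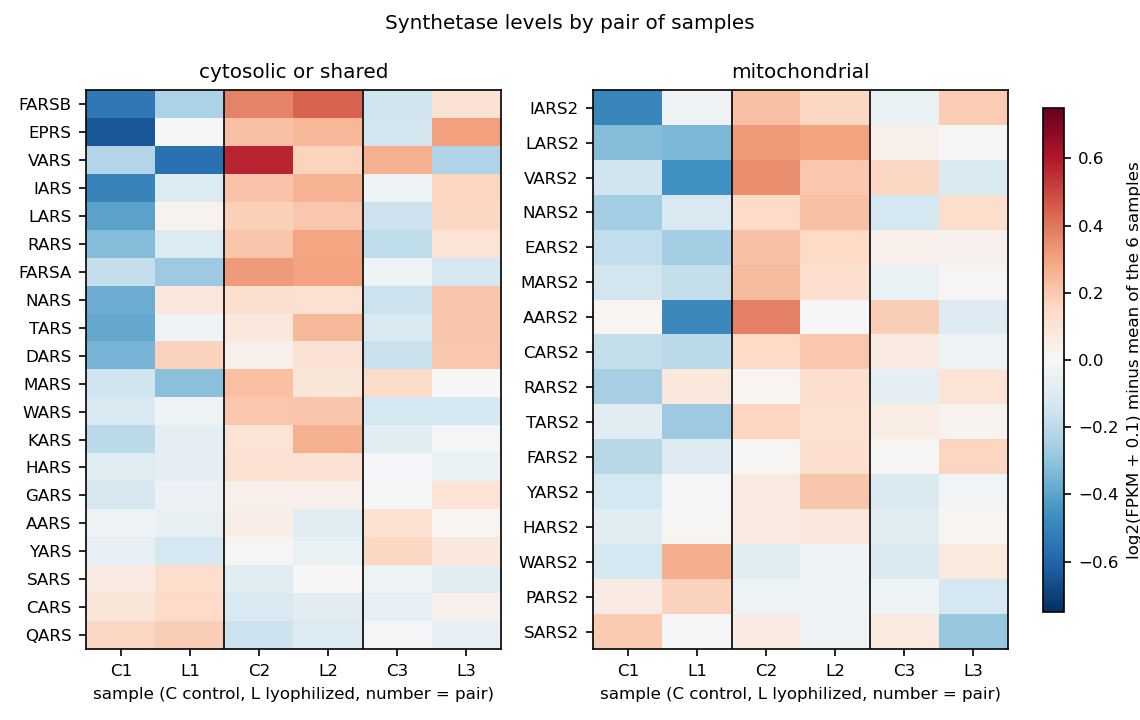
Log2(FPKM + 0.1) of each synthetase gene minus its mean over the 6 samples, as a colour scale from blue (lower) to red (higher), with the samples ordered by pair (C control, L lyophilized). Columns of the same pair resemble each other, with pair 1 mostly blue and pair 2 mostly red, and QARS, CARS, SARS, PARS2 and SARS2 show their highest control in pair 1.

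Other genes of the charging pathway were counted by lists. The 3 scaffold proteins of the multisynthetase complex are AIMP1, AIMP2 and EEF1E1, and 2 of them were higher with the block. AIMP1 measured 20.2, 24.3 and 19.5 FPKM in the controls and 26.6, 27.9 and 26.2 FPKM in the lyophilized samples, with no overlap (log2 fold change 0.34, adjusted p = 0.266 by limma, 0.00729 with the block). EEF1E1 measured 23.8, 48.3 and 39.8 FPKM in the controls and 33.1, 61.6 and 52.97 FPKM in the lyophilized samples (log2 fold change 0.41, adjusted p = 0.553 by limma, 0.00146 with the block). Both have transcripts of low GC content, 37.7% and 36.4%, while AIMP2, at 51.2%, had a log2 fold change of 0.05. With the scaffolds, 7 of the 11 genes of the complex were higher and none lower, against 15.9% and 14.9% of all genes tested, at a median log2 fold change of 0.21. With GC correction none of these 7 was called, AIMP1 and EEF1E1 having adjusted p values of 0.421 and 0.15 by limma with the block, and QARS was the only gene of the 11 that was.

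Downstream of charging, elongation factors carry the loaded transfer RNA to the ribosome. Of 6 such genes, 2 were higher with the block (15.9% of all genes tested) and none lower, at a median log2 fold change of 0.09. These were EEF1A1, the carrier itself (log2 fold change 0.19, adjusted p = 0.00497 by limma with the block), and its exchange factor subunit EEF1B2 (0.19, adjusted p = 0.0107). The mitochondrial factors TUFM and TSFM had log2 fold changes of 0.03 and -0.02 and were not called. With GC correction 4 of the 6 genes were higher (9.25% of all) and none lower. EEF1B2 was among them still (adjusted p = 0.0132 by limma with the block), EEF1A1 was not (0.191), and EEF1D, EEF1G and TUFM had log2 fold changes of 0.38, 0.22 and 0.21 (adjusted p = 0.00152, 0.00609 and 0.0115). None of the 4 genes found for other routes of mitochondrial charging (QRSL1, PET112, GATC, MTFMT), the 4 for proofreading (AARSD1, DTD1, C14orf126, PRORSD1P), the 3 for 3′ end processing of transfer RNA (ELAC1, ELAC2, TRNT1) or the 2 for selenocysteine charging (SEPSECS, PSTK) was called, without the block, with it or with GC correction. The lists' median log2 fold changes were 0.06, 0.00, -0.02 and 0.31 in that order, the last for SEPSECS and PSTK at control means of 2.63 ± 0.352 and 1.21 ± 0.222 FPKM (SD, n = 3).

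The amino acid response, the ATF4 program that is known to induce cytosolic synthetases when amino acids run short, was followed through 12 genes outside the synthetase family. None was higher and 3 were lower with the block, against 15.9% and 14.9% of all genes tested, at a median log2 fold change of -0.05. The regulator ATF4 measured 195, 169.7 and 189 FPKM in the controls and 217, 174 and 189 FPKM in the lyophilized samples (adjusted p = 0.843 by limma, 0.317 with the block). The 3 lower genes were SLC7A5 and SLC3A2, the light and heavy chains of a neutral amino acid transporter, and the stress protein gene SESN2. SLC7A5 measured 35.3, 41.5 and 46.7 FPKM in the controls and 26.7, 30.7 and 33.1 FPKM in the lyophilized samples, with no overlap (log2 fold change -0.44, adjusted p = 0.228 by limma, 0.00113 with the block). SLC3A2 and SESN2 had log2 fold changes of -0.14 and -0.29 (adjusted p = 0.0488 and 0.0147 by limma with the block). With GC correction SLC7A5 was still lower (log2 fold change -0.19, adjusted p = 0.0479 by limma with the block), while SLC3A2 and SESN2 were no longer called (adjusted p = 0.509 and 0.446). ATF4 and CEBPB, a bZIP factor, were higher in that fit, with log2 fold changes of 0.24 and 0.33 (adjusted p = 0.0257 and 0.0488 by limma with the block). With GC correction 2 of the 12 genes were thus higher and 1 lower, against 9.25% and 6.7% of all genes. ASNS, which makes asparagine, had a log2 fold change of 0.13 and was not called. The GC content was 61.2%, 57.6% and 59.6% in SLC7A5, SLC3A2 and SESN2 and 42.7% in ASNS.

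The 6 synthetases with the ATF4 site in their promoter had fold changes in both directions. With the block NARS, TARS and IARS were higher (15.9% of all genes tested were), and AARS, CARS and MARS were not called. The log2 fold changes of these 6 genes were 0.27, 0.28, 0.21, -0.09, 0.06 and -0.15 in that order. With GC correction TARS was the only one of the 6 that was called. Their transcripts have 41.7%, 42.8% and 44.1% GC in the first 3 genes and 54.9%, 52.8% and 53.8% in the last 3. Of the 6 B lineage markers, 1 was higher (MS4A1) and 3 were lower (PAX5, CD74, CD22) with the block, against 15.9% and 14.9% of all genes tested, and the GC content of MS4A1 was 37.8% against 53.6% to 57.2% in the 3 lower genes. With GC correction none of these 4 was called, and CD79B was higher (log2 fold change 0.25, adjusted p = 0.00532 by limma with the block).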

How the data were processed

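Poly(A)-selected, unstranded libraries of 3 control and 3 lyophilized samples were sequenced as 75-base single reads. The authors aligned them to hg19 with TopHat2 2.0.7, kept reads mapped to 1 position and deposited FPKM values from Cufflinks, whose version and gene annotation are not given in the sources used here. Read counts were not analysed here, and no counting interval or detection floor was computed. From 24934 records, the one with the highest mean was kept for each of 23284 symbols, 1623 small RNA symbols were removed, and genes with a mean above 1 FPKM in at least 1 group were tested.

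Log2(FPKM + 0.1) was compared with limma 3.58.1 in R 4.3.3 (mean-variance trend, Benjamini-Hochberg adjustment, threshold 0.05), with the condition only, as the study did, and with the pair as a block. The submitters' labels number the samples within each group and do not name pairs. The study lists control and lyophilized samples of the same number as pairs, and the label numbers were taken to be the same. The deviations of paired samples from their group means correlated at r = 0.716, 0.603 and 0.476 over all genes tested and at 0.815, 0.681 and 0.590 over the 36 genes. Alternatives with the block first subtracted, within each sample, a loess fit (span 0.3, degree 2) on GC content or on GC content and length. Transcripts came from GENCODE on GRCh37, in which 19264 symbols were matched by name and 2990 by locus, and stretches of 75 bases were searched in that genome. Relative depth was read from the commonest ratio of FPKM below 0.15 at loci under 8000 bases, which 67 to 93 of 260 to 316 loci shared. Tables were handled in Python 3.11.15 (numpy 2.4.6, scipy 1.17.1, pandas 2.3.3) and plotted with matplotlib 3.10.9.

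Values per sample are given for the 3 genes of each set with the largest differences in each direction among those that moved alike in 3 pairs, for the 2 highest and 2 lowest of each set, and for HARS, HARS2, GARS and KARS. FARSB and SARS are shown beside them for the pattern by pair and were chosen after their values were seen. The members and lists were chosen with earlier results of these data known. 1 marker of the B lineage is not reported here.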

Additional observations from a re-analysis of the deposited data

How the results depend on the processing

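The tables give no counts, the design has 3 pairs of 1 cell line, and most differences between the groups were smaller than the range of the controls, which limits what can be read for a single synthetase. Outside the fits that left out samples, 345 of 395 values of single genes (36 genes over the alternatives tried) kept their direction and their side of the threshold, 27 passed the threshold where the unpaired fit did not, and 23 turned in sign, 22 of them with a GC or length correction and 1 of them past the threshold (FARSA). The cause was not tested.

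Without the pairing, 62 genes of all tested were lower and 2 higher. These counts were 0 and 0 with no filter on low values and 34 and 0 with a mean above 5 FPKM, where the lower-expressed genes had been removed. The higher count was 4 with equal sample medians, 4 with upper-quartile scaling and 1 without the variance trend. None of these settings called a synthetase. With the replicate block the counts were 1657 and 1766, with equal sample medians added 1753 and 1921, with GC correction 728 and 1005, and with GC and length correction 431 and 505. The block with equal medians was chosen after seeing the data, as was the block with each pair left out.

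For the synthetases the block gave 8 higher and 1 lower cytosolic and 0 higher and 2 lower mitochondrial genes. With equal medians it gave 8, 1, 0 and 3, and with GC correction 3, 0, 1 and 0. With GC and length correction 1 mitochondrial gene was called. Leaving out 1 sample or pair without the block called between 0 and 116 genes lower and between 0 and 15 higher, and no synthetase, the lowest adjusted p being 0.197 by limma. With the block, leaving out 1 pair gave 786 to 2246 genes lower and 478 to 3113 higher, the most without pair 2, where 8 cytosolic genes were higher and 2 lower and 4 mitochondrial genes were higher and 3 lower.

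The median log2 fold change ran from 0.04 to 0.12 in the cytosolic and from -0.04 to 0.10 in the mitochondrial genes when samples were left out, the highest in both without control 2, and the mitochondrial median was 0.05 with GC and 0.06 with GC and length correction. The cytosolic minus mitochondrial level in the lyophilized samples, 2.09 in log2, was 2.02 with a pseudocount of 1, 2.13 with means in place of medians and 2.00 without GARS and KARS. None of the 16 counterpart ratios, whose median shift was 0.04, had an adjusted p below the threshold with or without the pairing. None could have, because the exact permutation tests cannot go below p = 0.1 without the pairing and 0.25 with it.

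The sign turned with GC correction in AARS (0.05), FARSA (0.17), FARSB (-0.02), HARS (0.16), YARS (0.03), CARS2 (0.13), LARS2 (0.01), NARS2 (-0.01), SARS2 (0.04) and TARS2 (0.05). With GC and length correction it turned in AARS (0.14), FARSA (0.11), FARSB (-0.01), HARS (0.17), MARS (0.02), VARS (0.01), YARS (0.03), CARS2 (0.06), EARS2 (0.01), LARS2 (0.14), TARS2 (0.05) and VARS2 (0.13), and with upper-quartile scaling in PARS2 (-0.0021). Leaving out samples turned the sign of FARSB, which ranged from -0.0045 to 0.45, and of 11 genes with smaller fold changes, which ranged from -0.24 to 0.07 in FARSA, -0.06 to 0.05 in HARS, -0.08 to 0.10 in QARS, -0.02 to 0.08 in SARS, -0.07 to 0.14 in WARS, -0.13 to 0.07 in CARS2, -0.15 to 0.07 in EARS2, -0.19 to 0.14 in LARS2, -0.11 to 0.08 in MARS2, -0.08 to 0.08 in PARS2 and -0.17 to 0.03 in TARS2.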
